A study of Mus musculus with 29 samples.

Results

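The 10 genes described here, all tied to the lung endothelium, were followed by every array probe that a RefSeq accession assigns to them: the ligands Apln and Vegfa, the receptors Aplnr, Kdr, Flt1, Tek and Tie1, and the junction genes Cldn5, Cdh5 and Pecam1. They have 18 probes of the 41174 on the array, and 17178 genes had at least 1 probe. All 18 probes were well above background on all 29 arrays. Total RNA of whole lung came from C57BL/6 mice aged 6 to 8 weeks, hybridised 1 sample per single-colour Agilent 4x44K array, in 8 groups of genotype, treatment and time, which the labels describe as biological replicates. Wild-type mice given saline gave 4 arrays at 4 h and 3 at 8 h, and wild-type mice given dexamethasone at 2.5 mg/kg gave 4 and 3. Klf15-/- mice, written here as knockout, gave 3 arrays at 4 h and 4 at 8 h after saline, and 4 and 4 after dexamethasone. Dexamethasone is a synthetic agonist of the glucocorticoid receptor. Klf15 encodes a zinc-finger transcription factor that the receptor induces, and the series asks how the receptor and Klf15 act in a feed-forward circuit.

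Endothelial cells line the blood vessels, and in the lung they form the capillary bed across which gas is exchanged. Vegfa, made largely by the epithelium of the alveolus, signals through the receptor Kdr, while Flt1 binds the same ligand tightly with weak kinase activity and can act as a decoy. Tek and Tie1 are the receptors of the angiopoietin system that keeps vessels quiescent, Apln and Aplnr are a peptide and its receptor found on different capillary cells of the lung, and Cldn5, Cdh5 and Pecam1 sit at the contacts that seal the endothelial layer.

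Each value is a processed signal on the log2 scale, set relative to the 75th percentile of the array, so that values follow a gene across arrays and are not compared between genes. A gene is given by its brightest probe unless stated, differences were tested with limma over all 15351 genes measured, and "rose" or "fell" means a Benjamini-Hochberg adjusted p under 0.05. The Klf15 level differed between knockout and wild-type saline lungs by -2.94 at 4 h (limma, adjusted p = 2.53e-08). Its wild-type saline arrays lay between 2.05 and 2.64 and its knockout saline arrays between -0.82 and -0.20. The Klf15 signal still rose by 1.93 after dexamethasone in knockout lungs at 4 h, and where its probe lies relative to the deleted part is not stated in the labels. The induced receptor targets Tsc22d3 and Fkbp5 rose by 1.54 and 3.07 in wild-type lungs at 4 h. At 8 h Tsc22d3 rose by 0.47 and Fkbp5 read -0.02 in wild-type lungs (limma, adjusted p = 0.0393 and 0.982). In knockout lungs they rose by 1.71 and 4.23 at 4 h and by 0.58 and 1.32 at 8 h. The difference of these effects between genotypes was not called at 8 h (limma, adjusted p = 0.761 and 0.22). Both also rose between 4 and 8 h in saline lungs, by 0.936 and 1.225 as the mean of genotypes. Markers of lung were bright on every array: Sftpc of alveolar type 2 cells lay between 7.23 and 8.26, and Ager of type 1 cells between 4.59 and 5.26. Prox1, the defining gene of lymphatic endothelium, lay between -7.22 and -4.74. The 7 knockout saline arrays stood apart in 1 respect. For 2546 genes, the brightest and dimmest probe, each well above background on all arrays, lay over 2 apart on the log2 scale. The mean over these genes of the brightest minus the dimmest probe was taken on each array. Relative to the average array it lay between -0.368 and -0.116 on the knockout saline arrays and between -0.0836 and 0.286 on the other 22 arrays. Many comparisons that use the knockout saline arrays, though not all, are therefore given below also after cyclic loess normalization, which adjusts for trends with brightness. Further probes of a gene were not fitted after cyclic loess.

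RefSeq promoters (GRCm38.p6, 250 bases before to 50 after the start) were found for 7 of the 10 genes. Those of 4 genes are shown because the results turn on these genes: Kdr and Tek, which fell; Flt1, which rose; and Apln, which fell by the largest amount among the 10 genes at 8 h in both genotypes. Capitals mark the letters CACCC on either strand, the core of sequences that Klf factors can bind. Each is printed 5' to 3' on the strand of its gene, at chr5:75978406-75978705 (minus strand), chr5:147725962-147726261 (minus), chr4:94739039-94739338 (plus) and chrX:48034804-48035103 (minus) in this order.
Kdr: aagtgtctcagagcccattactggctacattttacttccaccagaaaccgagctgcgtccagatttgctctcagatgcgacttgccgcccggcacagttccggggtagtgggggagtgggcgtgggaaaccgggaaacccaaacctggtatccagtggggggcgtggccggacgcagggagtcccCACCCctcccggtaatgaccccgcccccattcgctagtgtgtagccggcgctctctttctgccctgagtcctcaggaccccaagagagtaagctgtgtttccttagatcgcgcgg
Flt1: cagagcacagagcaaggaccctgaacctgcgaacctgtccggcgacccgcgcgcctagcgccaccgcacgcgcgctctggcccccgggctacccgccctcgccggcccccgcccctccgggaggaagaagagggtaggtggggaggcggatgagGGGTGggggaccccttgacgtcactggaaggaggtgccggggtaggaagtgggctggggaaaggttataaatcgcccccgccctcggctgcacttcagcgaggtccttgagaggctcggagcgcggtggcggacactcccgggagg
Tek: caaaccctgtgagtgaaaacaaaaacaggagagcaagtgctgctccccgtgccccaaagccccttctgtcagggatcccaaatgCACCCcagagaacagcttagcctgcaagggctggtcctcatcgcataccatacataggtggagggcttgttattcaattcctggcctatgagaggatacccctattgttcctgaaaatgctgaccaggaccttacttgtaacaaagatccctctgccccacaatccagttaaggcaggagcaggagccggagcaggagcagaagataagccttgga
Apln: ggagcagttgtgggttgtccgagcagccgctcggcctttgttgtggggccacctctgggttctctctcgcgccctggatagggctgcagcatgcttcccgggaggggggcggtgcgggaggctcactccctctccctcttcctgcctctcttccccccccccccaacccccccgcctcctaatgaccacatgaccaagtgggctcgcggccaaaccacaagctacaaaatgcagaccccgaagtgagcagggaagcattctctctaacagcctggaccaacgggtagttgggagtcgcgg
The letters CACCC start 65 bases before the start of Kdr, 96 before that of Flt1 and 166 before that of Tek, and do not occur in the Apln window. Vegfa is listed with 2 start sites, so the 7 genes have 8 promoters, of which 7 hold CACCC, against 57.5% of all 32851 promoters of this length. The Vegfa windows are chr17:46032328-46032627 and, downstream of it on the minus strand, chr17:46025114-46025413. Use of either start in lung was not tested. GGGCGG, which can overlap CACCC, was in 6 of the 8 and in 35.7% of all promoters. The receptor sequence GNACANNNTGTNC was in none of the 8 and in 0.475% of all. AGAACA, which can overlap it, was in 1 of the 8 and in 19% of all. This match lies 158 bases before the start of Tek. The letters CAGGAA, a core of sequences bound by ETS factors, were in 4 of the 8 and in 30.6% of all, and ACGTG, the hypoxia response core, in 1 and in 19.6%. This ACGTG match is in the downstream Vegfa window, and the other Vegfa window has none. All motifs were searched on both strands, and a match describes these letters only.

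Dexamethasone lowered most of the 10 genes. In wild-type lungs at 4 h all 10 passed the test: 8 fell and 2, Flt1 and Cdh5, rose, where 36.7% of all genes measured were called (14.3% higher and 22.4% lower). The Cdh5 call rests on its brightest probe and was lost in 9 of 22 alternatives. At 8 h in wild-type lungs 6 fell, 1 rose and 3 (Kdr, Cdh5, Vegfa) did not pass, against 23.6% of all genes (9.32% higher and 14.3% lower). In knockout lungs 7 fell and 1 rose at 4 h, against 42.7% (25% and 17.6%), and 8 fell and 1 rose at 8 h, against 43% (25.8% and 17.2%). With cyclic loess the knockout differences at 4 and 8 h were -1.570 and -0.856 for Kdr, -1.609 and -1.269 for Tek, -0.767 and -1.005 for Tie1, -1.055 and -0.949 for Pecam1, -1.540 and -3.518 for Apln and -2.628 and -2.667 for Aplnr, all called. For Cdh5 they were -0.039 and -0.267, neither of them called (adjusted p = 0.885 and 0.161). The treated arrays lay wholly below the saline arrays for 8 of the 10 genes in wild-type lungs at 4 h and for 7 in each of the other 3 comparisons, where this held for 20.4%, 22.2%, 19.5% and 14.3% of all genes. They lay wholly above for 1 gene, Flt1, in each, where this held for 13.4%, 15.9%, 25.8% and 22.6%. Over all probes, which are used for the further probes below, 34.7%, 18.6%, 38.5% and 35.9% were called. The median difference over the 10 genes was -0.72, -0.44, -0.75 and -0.75 in these 4 comparisons, beside -0.03, -0.06, 0.05 and 0.11 over all genes. RNA of whole lung cannot tell fewer endothelial cells apart from less RNA of these genes per cell. The summed level of the 8 other endothelial markers that had a value on every array lay between 6.51 and 6.53 on the wild-type saline arrays at 4 h and between 6.17 and 6.32 after dexamethasone. At 8 h it lay between 6.35 and 6.46 and between 6.21 and 6.30 in wild-type lungs. In knockout lungs it lay between 6.31 and 6.34 and between 6.19 and 6.29 at 4 h, and between 6.24 and 6.45 and between 6.30 and 6.38 at 8 h. Lymphocyte markers moved more: the mean summed level of 9 B cell genes was 3.66 and 1.40 in wild-type saline and dexamethasone lungs at 4 h, that of 10 T cell genes 2.67 and 1.29, and that of 8 NK cell genes 1.42 and -0.23. The summed level of 5 lymphatic endothelial genes lay between 4.82 and 5.31 on wild-type saline arrays at 4 h and between 5.29 and 5.68 after dexamethasone, and between 4.73 and 4.8 and between 5.29 and 5.65 in knockout lungs. At 8 h it lay between 4.87 and 5.24 and between 4.49 and 4.75 in wild-type lungs, and between 4.68 and 4.78 and between 4.99 and 5.23 in knockout lungs. These 5 genes include Pdpn, which is also among the alveolar type 1 markers, and bright genes dominate a sum of unlogged levels. Prox1 itself passed in none of the 4 comparisons (limma, adjusted p = 0.797, 0.721, 0.959 and 0.181). Whether the sum follows lymphatic endothelium was not tested. The part of cell composition in the changes of the 10 genes was not tested.

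**Figure D1:**
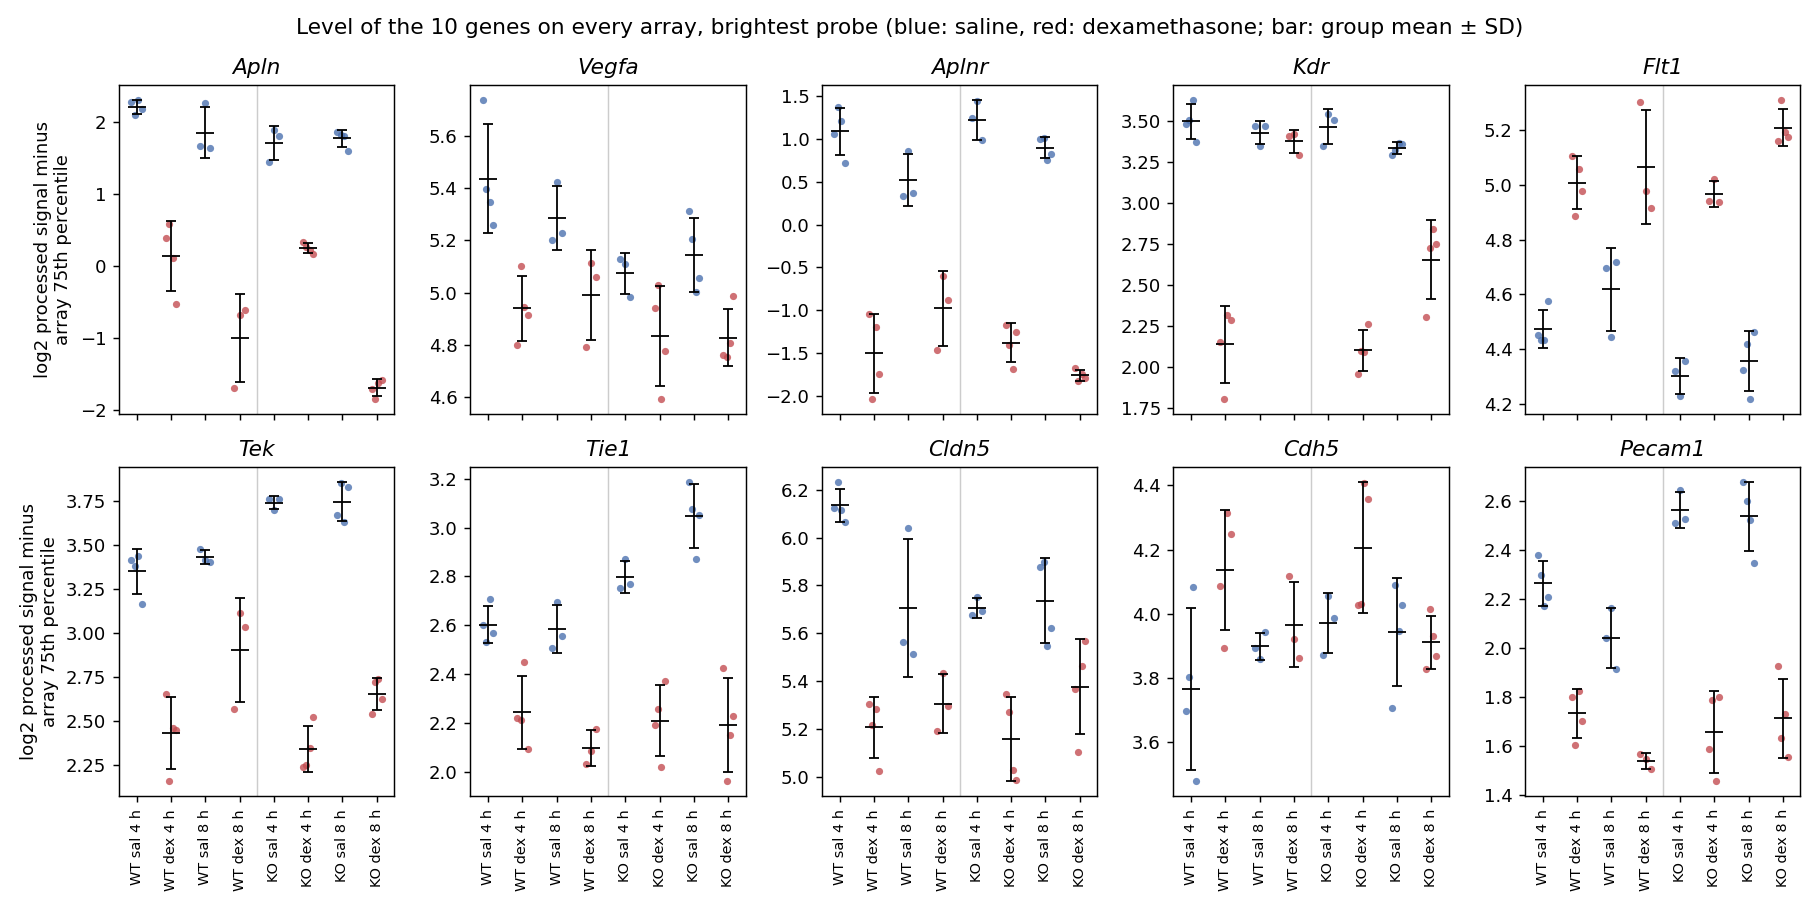
Level of each of the 10 genes on every array (log2 signal relative to the 75th percentile), by group of genotype, treatment and time; blue points are saline arrays, red points dexamethasone arrays, and bars the group mean and SD. At 8 h the treated Kdr arrays overlapped the saline arrays in wild-type lungs (3.29 to 3.42) and lay below them in knockout lungs (2.30 to 2.84), and Flt1 is the gene whose dexamethasone arrays lay above its saline arrays in every comparison.

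Apln, the apelin peptide, fell in all 4 comparisons. Its difference was more negative at 8 h than at 4 h in both genotypes, which passed the test of the times against each other in the knockout, by this probe, and not in wild type (adjusted p = 0.000564 and 0.187). In wild-type lungs at 4 h the saline arrays read 2.28, 2.10, 2.31 and 2.18 and the dexamethasone arrays 0.39, 0.59, 0.11 and -0.53. In knockout lungs at 4 h they read 1.45, 1.89 and 1.81 after saline and 0.34, 0.26, 0.22 and 0.17 after dexamethasone. Every dexamethasone array was below every saline array, and the wild-type dexamethasone arrays were spread wider than the knockout ones. At 8 h the wild-type arrays read 1.67, 2.27 and 1.64 after saline and -1.70, -0.68 and -0.60 after dexamethasone. The knockout arrays read 1.87, 1.82, 1.81 and 1.61 after saline and -1.70, -1.85, -1.62 and -1.58 after dexamethasone. The groups were again apart, and 1 wild-type dexamethasone array, replicate 54, was as low as the knockout arrays. Apln fell by 2.08 (SE 0.210) in wild-type lungs at 4 h, to 0.237 of the saline level (limma, adjusted p = 3.89e-08), and by 2.85 (SE 0.242) at 8 h, to 0.138 (adjusted p = 1.49e-08). In knockout lungs it fell by 1.47 (SE 0.227) at 4 h, to 0.362 (adjusted p = 1.52e-05), and by 3.47 (SE 0.210) at 8 h, to 0.0906 (adjusted p = 1.52e-11). The other 2 Apln probes fell in all 4 comparisons as well: one by 2.12, 2.15, 1.76 and 2.90 and the dimmest by 0.87, 1.56, 1.06 and 1.68, in the order wild type 4 and 8 h, knockout 4 and 8 h. By the brighter of these 2 the wild-type fall was thus nearly the same at both times.

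Vegfa, the ligand of Kdr and Flt1, changed less than Apln. Its wild-type saline arrays at 4 h read 5.74, 5.40, 5.35 and 5.26 and the dexamethasone arrays 4.8, 5.10, 4.94 and 4.91. These groups did not overlap, and Vegfa fell by 0.50 (SE 0.108; limma, adjusted p = 0.000765). At 8 h in wild-type lungs the saline arrays read 5.20, 5.42 and 5.23 and the dexamethasone arrays 4.79, 5.12 and 5.06, which did not overlap, with a difference of -0.30 (95% interval -0.55 to -0.04, adjusted p = 0.0897). In knockout lungs the difference was -0.24 at 4 h (interval -0.48 to 0.00, adjusted p = 0.103), with overlapping arrays, and at 8 h Vegfa fell by 0.32 (adjusted p = 0.0203). Beside this brightest probe Vegfa has 3 others, which fell together with it in wild-type lungs at 4 h and also where it missed the threshold in wild-type lungs at 8 h, by 0.31, 0.83 and 0.88. In knockout lungs at 4 h 2 of the 3 fell, by 0.42 and 0.49, and the other read -0.20 (adjusted p = 0.0720). The knockout call of the brightest probe at 8 h was lost without saline replicate 45 (-0.26), saline replicate 46 (-0.30) or dexamethasone replicate 62 (-0.29), with adjusted p of 0.0744, 0.0524 and 0.0542. Cyclic loess gave -0.58 at 4 h and -0.62 at 8 h in knockout lungs, both called.

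**Figure D2:**
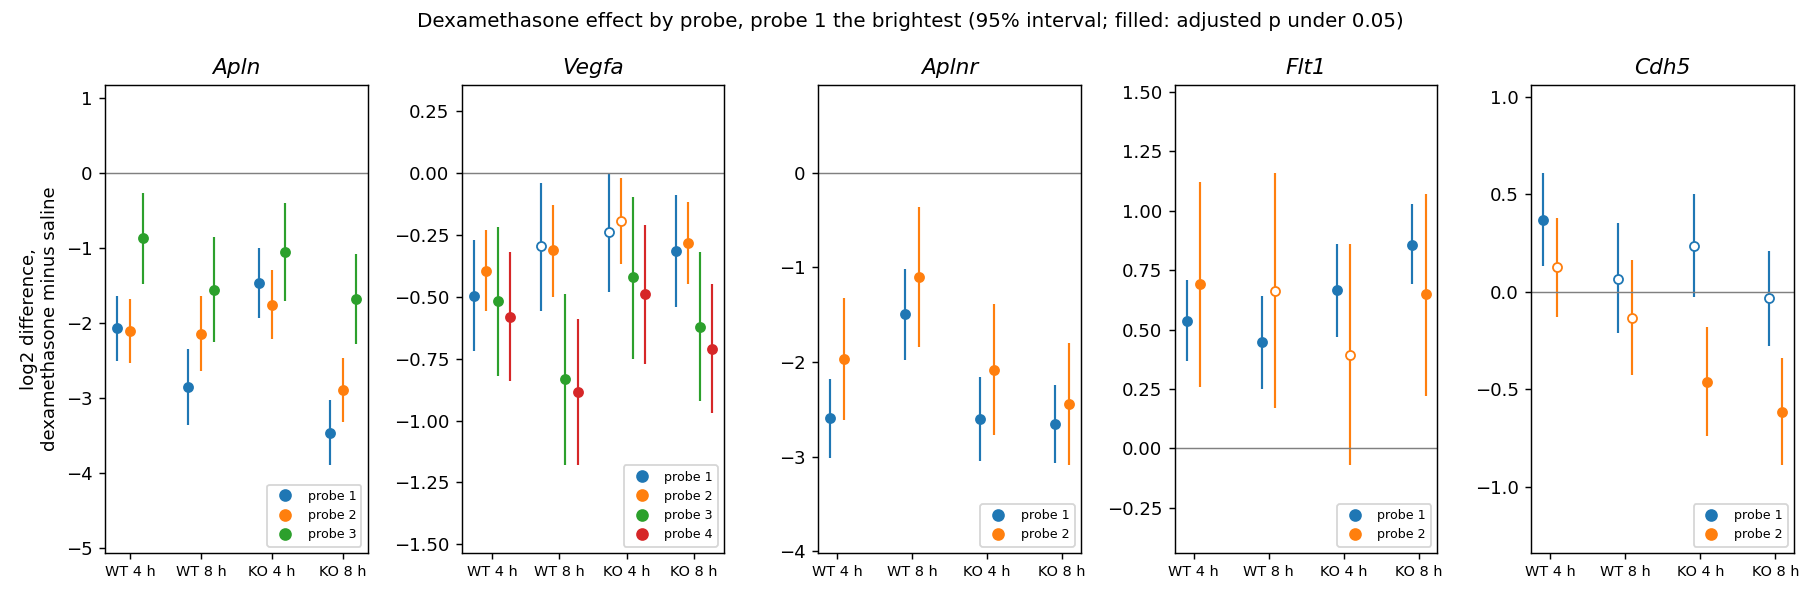
Dexamethasone minus saline (log2 difference with its 95% interval) for each probe of the 5 genes with several probes, in the 4 comparisons; filled points passed an adjusted p under 0.05. All probes of Apln, Aplnr and Vegfa lay below 0 and both probes of Flt1 above 0 in every comparison, while the 2 Cdh5 probes differed in sign in wild-type lungs at 8 h (0.07 and -0.14) and in knockout lungs at 4 h (0.23 and -0.46).

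Aplnr, the receptor of apelin, fell in all 4 comparisons and by nearly the same amount in 3 of them. Wild-type saline arrays at 4 h read 1.06, 1.37, 1.21 and 0.72 and the dexamethasone arrays -1.04, -2.04, -1.20 and -1.74. In knockout lungs at 4 h they read 1.24, 1.45 and 0.98 after saline and -1.17, -1.41, -1.69 and -1.25 after dexamethasone. At 4 h both genotypes thus covered similar ranges under either treatment. At 8 h the wild-type arrays read 0.33, 0.86 and 0.36 after saline and -1.46, -0.59 and -0.88 after dexamethasone. The knockout arrays read 1.0, 1.01, 0.76 and 0.83 after saline and -1.68, -1.82, -1.74 and -1.79 after dexamethasone. All knockout dexamethasone arrays at 8 h were below all wild-type ones, and no saline array overlapped a dexamethasone array. At 4 h Aplnr fell by 2.59 in wild-type lungs (SE 0.200) and by 2.60 in knockout lungs (SE 0.216) (limma, adjusted p = 5.5e-10 and 1.74e-09). At 8 h it fell by 1.498 (SE 0.231, adjusted p = 4.63e-05) in wild-type lungs and by 2.66 (SE 0.200, adjusted p = 5.21e-10) in knockout lungs. The other Aplnr probe fell by 1.97 and 1.10 in wild-type and by 2.08 and 2.45 in knockout lungs at 4 and 8 h.

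Kdr, the main signalling receptor of Vegfa, fell at 4 h in both genotypes by nearly the same amount. At 8 h its wild-type treated arrays overlapped the saline range and its knockout treated arrays did not. In wild-type lungs at 4 h the saline arrays read 3.48, 3.5, 3.63 and 3.37 and the dexamethasone arrays 2.15, 1.80, 2.31 and 2.29. In knockout lungs at 4 h they read 3.35, 3.54 and 3.5 after saline and 1.96, 2.09, 2.09 and 2.26 after dexamethasone. The treated arrays of both genotypes shared 1 low range at this time. At 8 h the wild-type arrays read 3.47, 3.35 and 3.47 after saline and 3.41, 3.42 and 3.29 after dexamethasone. The knockout arrays read 3.29, 3.32, 3.36 and 3.36 after saline and 2.30, 2.72, 2.84 and 2.75 after dexamethasone. Saline and dexamethasone arrays overlapped at 8 h in wild-type lungs and were apart in knockout lungs. At 4 h Kdr fell by 1.36 (SE 0.105) in wild-type lungs, to 0.391 of the saline level, and by 1.36 (SE 0.114) in knockout lungs, to 0.389 (limma, adjusted p = 5.97e-10 and 1.85e-09). At 8 h the wild-type difference was -0.05, with a 95% interval of -0.30 to 0.20 (adjusted p = 0.804), and in knockout lungs Kdr fell by 0.68 (SE 0.105, adjusted p = 1.76e-05). Kdr has 1 probe, with 10 spots on each array, whose SD within an array lay between 0.0225 and 0.106.

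Flt1, the decoy-like receptor of Vegfa, moved the opposite way to Kdr. At 4 h the wild-type saline arrays read 4.45, 4.43, 4.43 and 4.58 and the dexamethasone arrays 5.11, 4.89, 5.06 and 4.98. At 8 h they read 4.70, 4.44 and 4.72 after saline and 5.30, 4.98 and 4.92 after dexamethasone. The treated arrays were above the saline arrays at both times. In knockout lungs the saline arrays read 4.32, 4.23 and 4.36 at 4 h and 4.32, 4.42, 4.22 and 4.46 at 8 h. The dexamethasone arrays read 4.94, 5.02 and 4.94 at 4 h, where the spot of replicate 58 was marked as an outlier and has no value, and 5.16, 5.31, 5.19 and 5.17 at 8 h. Again no array overlapped. Flt1 rose by 0.54 (SE 0.0802) and 0.45 (SE 0.0926) in wild-type lungs and by 0.67 (SE 0.0926, 3 treated arrays) and 0.86 (SE 0.0802) in knockout lungs at 4 and 8 h (limma, adjusted p = 1.31e-05, 0.00106, 4.95e-06 and 2.66e-08). The other Flt1 probe rose by 0.69 and 0.65 in wild-type lungs at 4 h and knockout lungs at 8 h. It read 0.66 (adjusted p = 0.0542) in wild-type lungs at 8 h and 0.40 (adjusted p = 0.174) in knockout lungs at 4 h, and the mean of both probes gave 0.21 (adjusted p = 0.524) in the latter, so that the call there rests on the brightest probe. Cyclic loess lowered the knockout rise of Flt1 to 0.378 at 4 h and 0.575 at 8 h, both called.

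Tek and Tie1, the paired receptors of the angiopoietin system, both fell in all 4 comparisons. The Tek saline arrays of wild-type lungs read 3.42, 3.38, 3.44 and 3.17 at 4 h and 3.48, 3.41 and 3.40 at 8 h, and those of knockout lungs 3.76, 3.70 and 3.76 at 4 h and 3.67, 3.85, 3.63 and 3.83 at 8 h. All 7 knockout saline arrays were above all 7 wild-type saline arrays. After dexamethasone the wild-type arrays read 2.65, 2.16, 2.46 and 2.45 at 4 h and 2.57, 3.12 and 3.03 at 8 h, and the knockout arrays 2.24, 2.25, 2.35 and 2.52 at 4 h and 2.54, 2.72, 2.74 and 2.63 at 8 h. The treated arrays of the 2 genotypes overlapped at both times. Tek fell by 0.92 (SE 0.105) and 0.52 (SE 0.122) in wild-type lungs at 4 and 8 h (limma, adjusted p = 2.76e-07 and 0.0027). In knockout lungs it fell by 1.40 (SE 0.114) and 1.09 (SE 0.105), with adjusted p of 1.3e-09 and 2.91e-08. Tie1, the coreceptor with no known angiopoietin ligand of its own, had saline arrays between 2.51 and 2.71 in wild-type lungs and between 2.75 and 3.19 in knockout lungs. After dexamethasone they lay between 2.03 and 2.45 and between 1.96 and 2.42, and within no genotype and time did the treatments overlap. Tie1 fell by 0.36 and 0.49 in wild-type and by 0.59 and 0.86 in knockout lungs at 4 and 8 h (adjusted p = 0.00352, 0.00164, 4.82e-05 and 1.52e-07).

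**Figure D3:**
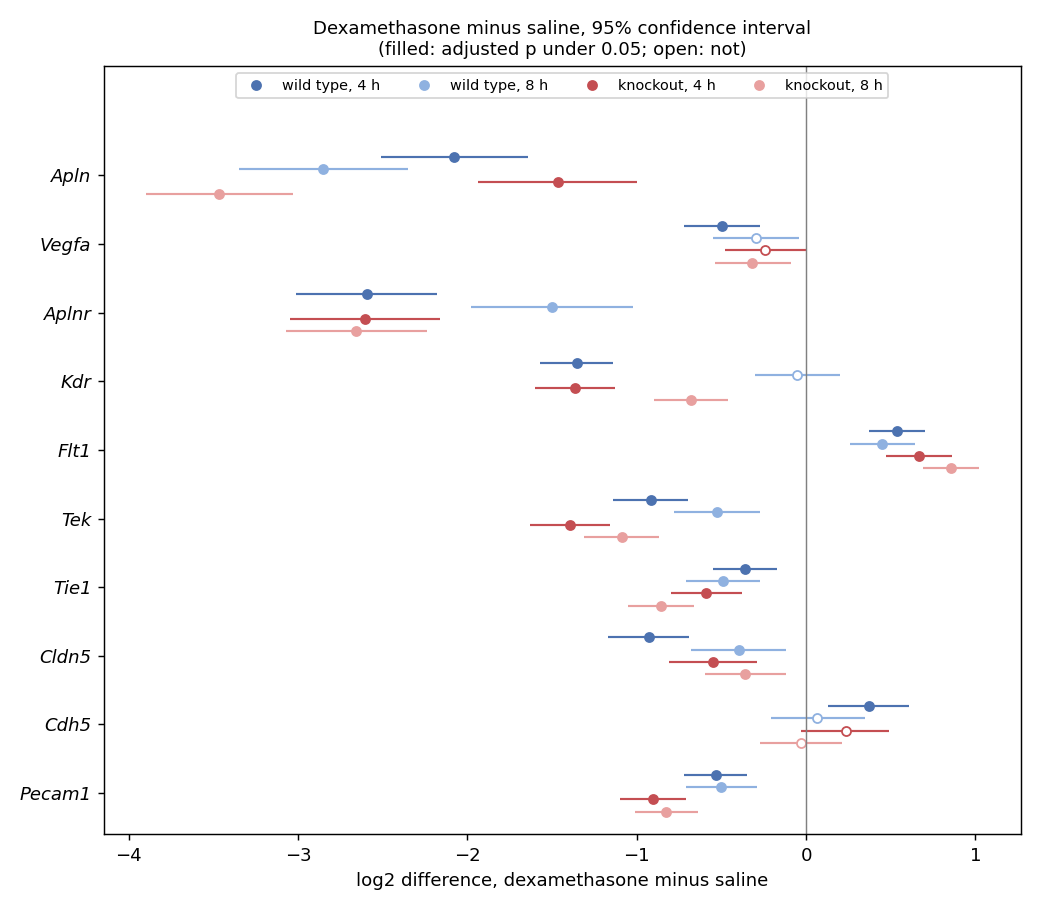
Dexamethasone minus saline for the 10 genes (log2 difference with its 95% confidence interval) in wild-type and knockout lungs at 4 and 8 h; filled points passed an adjusted p under 0.05. Apln and Aplnr lay furthest below 0, Flt1 lay above 0 in all 4 comparisons, and Kdr read -1.36, -0.05, -1.36 and -0.68 in the order wild type 4 and 8 h, knockout 4 and 8 h.

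The 3 junction genes did not move as a group. Cldn5, the claudin of the endothelial tight junction, read 6.12, 6.23, 6.12 and 6.06 on the wild-type saline arrays at 4 h and 5.30, 5.22, 5.29 and 5.02 after dexamethasone, with no overlap. At 8 h in wild-type lungs it read 5.57, 6.04 and 5.51 after saline and 5.19, 5.43 and 5.29 after dexamethasone. Of these saline arrays, replicate 38 was well above the other 2. Cldn5 fell by 0.93 (SE 0.116) and 0.40 (SE 0.134) in wild-type lungs at 4 and 8 h (limma, adjusted p = 9.53e-07 and 0.0328). The knockout arrays at 4 h read 5.67, 5.75 and 5.69 after saline and 5.35, 5.27, 5.03 and 4.99 after dexamethasone, again apart, and at 8 h they overlapped. In knockout lungs Cldn5 fell by 0.55 and 0.36 (adjusted p = 0.00108 and 0.0151), and cyclic loess gave -0.92 and -0.69. The wild-type call at 8 h was lost without saline replicate 38 (-0.23, adjusted p = 0.263), dexamethasone replicate 54 (-0.34, 0.128) or replicate 56 (-0.39, 0.0705), and the knockout call at 8 h without saline replicate 45 (-0.31) or 46 (-0.30) or dexamethasone replicate 62 (-0.27), with adjusted p of 0.0507, 0.0577 and 0.0741. Counting the other alternatives too, the wild-type call at 8 h was lost in 9 of 20 and the knockout call in 5 of 22.

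Pecam1, the adhesion molecule CD31 at endothelial contacts, fell in all 4 comparisons with no overlap. Its wild-type saline arrays lay between 1.92 and 2.38 and its wild-type dexamethasone arrays between 1.5 and 1.83, and its knockout arrays between 2.35 and 2.68 and between 1.46 and 1.93. It fell by 0.53 (SE 0.0889) and 0.50 (SE 0.103) in wild-type lungs at 4 and 8 h (limma, adjusted p = 4.3e-05 and 0.000899). In knockout lungs it fell by 0.91 and 0.83 (adjusted p = 8.13e-08 and 1.43e-07). Cdh5, the VE-cadherin of the adherens junction, differed from both. Its saline arrays read 3.70, 3.80, 4.08 and 3.48 in wild-type lungs at 4 h and its dexamethasone arrays 4.09, 3.90, 4.31 and 4.25, which overlapped. Cdh5 rose by 0.37 (SE 0.117, adjusted p = 0.0153) in this comparison and read 0.07, 0.23 and -0.03 in the other 3 (adjusted p = 0.776, 0.147 and 0.843). The rise lost its call without saline replicate 36 (0.27, adjusted p = 0.0809) and without dexamethasone replicate 51 (0.31, 0.0610) or 52 (0.33, 0.0513), and with median scaling (0.28, 0.0589). Counting the other alternatives too, this call was lost in 9 of 22. The other Cdh5 probe read 0.12 there (adjusted p = 0.483) and fell by 0.46 and 0.62 in knockout lungs at 4 and 8 h, the latter with 3 saline arrays because the spot of replicate 45 was marked as an outlier. The knockout falls of this dimmer probe use the saline arrays that stood apart in the difference between bright and dim probes, and have no cyclic loess value. The 2 Cdh5 probes thus gave different answers, and neither is taken as the level of the gene.

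Between 4 and 8 h the dexamethasone effect itself was tested. In wild-type lungs 2 of the 10 genes were called, Kdr and Aplnr, both higher, against 6.01% of all genes (2.87% higher and 3.14% lower). In knockout lungs Kdr was called higher and Apln lower, against 3.01% (1.22% and 1.78%). The effect on Kdr was 1.30 higher (less negative) at 8 h than at 4 h in wild-type lungs (SE 0.161; limma, adjusted p = 1.8e-05) and 0.68 higher in knockout lungs (SE 0.155, adjusted p = 0.0134). The wild-type value kept its call under all 28 alternatives, between 1.19 and 1.42, and the knockout call was lost with the authors' series table (0.62, adjusted p = 0.0867) and with a normexp background correction (0.65, 0.0523). The effect on Apln differed by -1.997 in knockout lungs, being more negative at 8 h (SE 0.309, adjusted p = 0.000564), and in wild-type lungs the change was -0.78 (adjusted p = 0.187). The knockout value for the dimmest Apln probe was -0.62 (adjusted p = 0.692). The second Apln probe had a mean level of 0.498, beside 0.639 for the brightest. Its saline and dexamethasone means were 1.48 and -0.28 at 4 h and 1.63 and -1.27 at 8 h in knockout lungs. In wild-type lungs they were 1.88 and -0.23 at 4 h and 1.59 and -0.56 at 8 h. No test between times is given for this probe. The effect on Aplnr was 1.09 higher at 8 h in wild-type lungs (SE 0.305, adjusted p = 0.0325) and -0.05 in knockout lungs (adjusted p = 0.977). The wild-type call for Aplnr was lost in turn without saline replicates 33, 34, 35, 37 and 39 and dexamethasone replicates 50, 52, 55 and 56, with differences between 0.90 and 1.11. It was also lost with the other Aplnr probe, with the mean of its probes and with only the arrays of the groups compared. In total this call was lost in 12 of 28 alternatives, whose values ran from 0.87 to 1.34 (limma, adjusted p up to 0.417). Between saline lungs at 8 and 4 h none of the 10 genes was called by limma (3.26% of all genes were, 2.08% higher and 1.18% lower), with an unadjusted p under 0.05 for 2 of them, Aplnr (-0.45) and Cldn5 (-0.20).

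Genotype was compared within each treatment and time. In saline lungs at 4 h 2 of the 10 genes were higher in the knockout, Tek and Pecam1, and 2 lower, Cldn5 and Vegfa, against 25% of all genes called (6.06% higher and 19% lower). At 8 h Tie1 and Pecam1 were higher and Flt1 lower, against 13.8% (5.03% and 8.76%). The arrays of the genotypes did not overlap for 3 genes higher and 4 lower at 4 h (11.7% and 25.8% of all genes) and for 3 higher and 0 lower at 8 h (7.65% and 20%). Tek was 0.39 higher at 4 h (SE 0.114; limma, adjusted p = 0.0158) and read 0.32 at 8 h (adjusted p = 0.0648), with no overlap between genotypes at either time. Pecam1 was 0.30 and 0.50 higher at 4 and 8 h (adjusted p = 0.0258 and 0.00269). Tie1 read 0.20 at 4 h (adjusted p = 0.157), with no overlap, and was 0.46 higher at 8 h (adjusted p = 0.00503). With cyclic loess all 3 genes were called higher in the knockout at both times, by 0.60 and 0.44 for Tek, 0.45 and 0.58 for Pecam1 and 0.37 and 0.56 for Tie1. Median scaling left Tek and Pecam1 uncalled at 4 h, at 0.23 and 0.14 (adjusted p = 0.107 and 0.429).

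The lower calls in saline knockout lungs depended on the scaling. Cldn5 read -0.43 at 4 h (adjusted p = 0.0160) and Vegfa -0.36 (adjusted p = 0.0259), with no overlap between genotypes. After cyclic loess they read -0.10 and -0.05 (adjusted p = 0.551 and 0.731), and with the slide as a block -0.14 and -0.08. Flt1 read -0.26 at 8 h (adjusted p = 0.0460) and -0.07 after cyclic loess (adjusted p = 0.717), and its call was lost without any 1 of wild-type replicates 37 and 39 and knockout replicates 45, 46 and 47, with differences between -0.29 and -0.21. The 4 h call of Vegfa was lost without wild-type replicate 33 (-0.26) or knockout replicate 43 (-0.38) or 44 (-0.32). The 4 h call of Tek was lost without wild-type replicate 36 (0.33) or knockout replicate 44 (0.38), and that of Pecam1 without wild-type replicate 35 (0.27) or 36 (0.28) or knockout replicate 43 (0.26) or 44 (0.32). The other Cdh5 probe was 0.56 and 0.73 higher in the knockout at 4 and 8 h (adjusted p over all probes 0.00719 and 0.00377, where 19.1% and 11.8% of probes were called), while the brightest read 0.21 and 0.04.

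In dexamethasone lungs at 4 h none of the 10 genes differed between genotypes by limma at an adjusted p under 0.05, and none at an unadjusted p under 0.05, where 0.971% of all genes were called (0.345% higher and 0.625% lower) and 4.25% and 1.96% had arrays wholly higher or lower. The 95% intervals bound the difference: for Kdr they ran from -0.26 to 0.18, for Tek from -0.31 to 0.13 and for Apln, the widest, from -0.33 to 0.54. At 8 h 2 of the 10 genes were lower in the knockout, Kdr and Aplnr, against 4.95% of all genes (3.02% higher and 1.93% lower). The knockout dexamethasone arrays of both were all below the wild-type ones, as for 8.45% of all genes, while 13.3% lay wholly above. Kdr differed by -0.72 (SE 0.114, adjusted p = 0.000527), at 0.607 of the wild-type level, and this stayed between -0.86 and -0.60 under all 21 alternatives. The Kdr call was lost only when the 7 arrays of these groups were fitted alone (adjusted p = 0.109). Aplnr differed by -0.78 (SE 0.216, adjusted p = 0.0367), a call lost without wild-type replicate 55 (-0.59) or 56 (-0.73) or any 1 of knockout replicates 61 to 64 (-0.81 to -0.76). Apln read -0.70 (adjusted p = 0.0729), and -1.05 (adjusted p = 0.00621) without wild-type replicate 54, the array with the lowest Apln of its group. The summed level of 6 heart genes also varied between these arrays. It lay between 1.98 and 4.68 in wild-type and between 4.48 and 5.72 in knockout dexamethasone lungs at 8 h. Myh6, 1 of the 6, was not called there (1.71, limma, adjusted p = 0.193). The part of heart tissue in these differences was not tested.

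**Figure D4:**
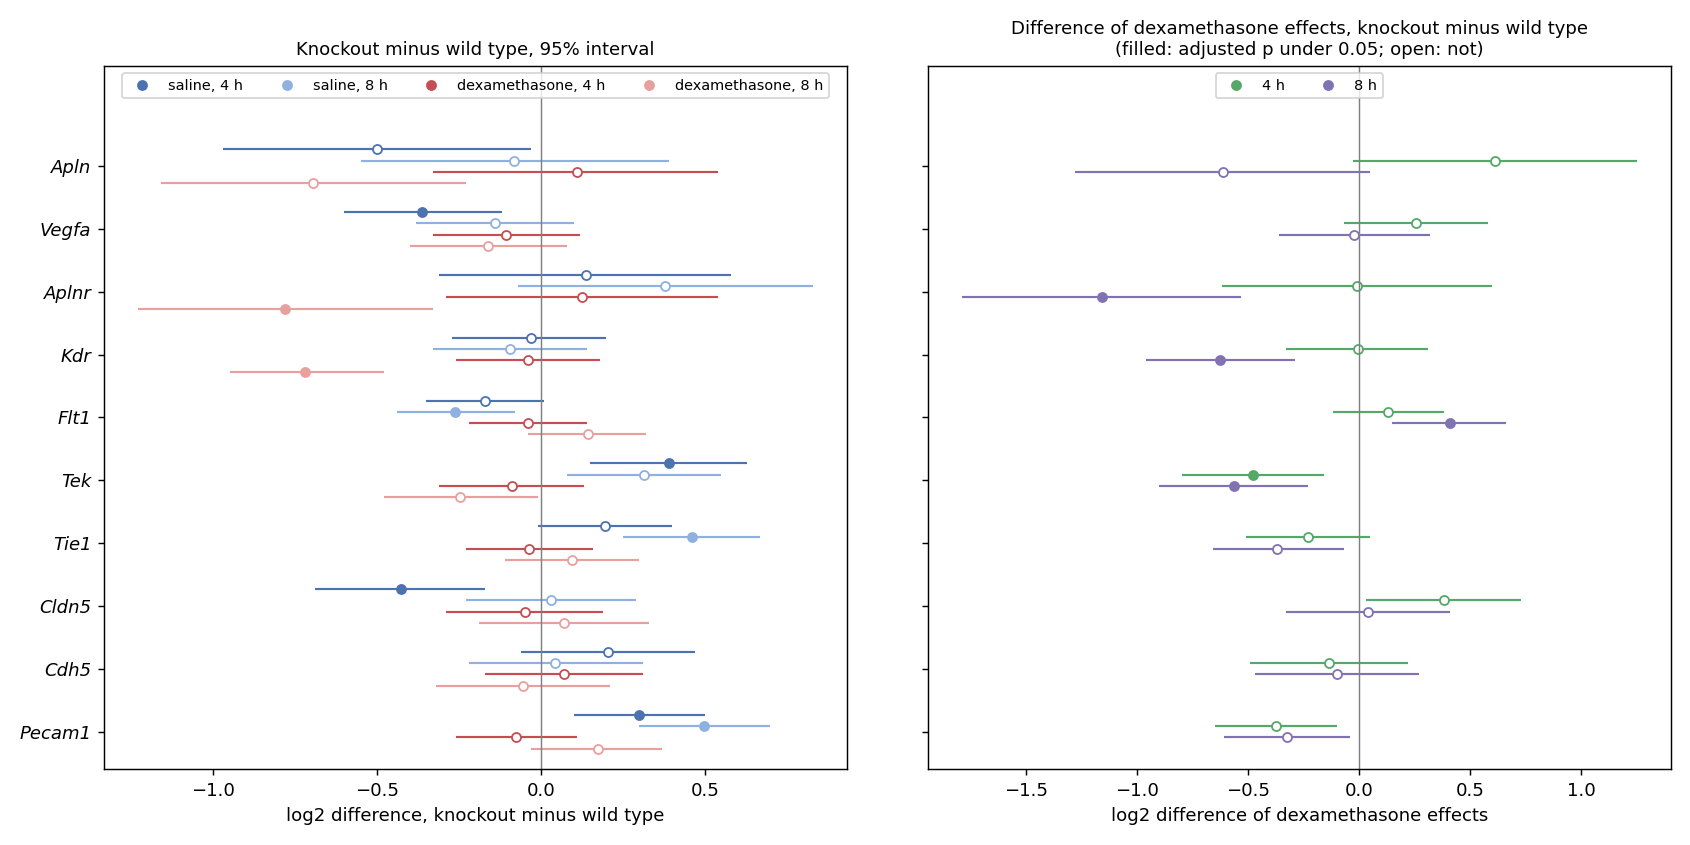
Left, knockout minus wild type for the 10 genes (log2 difference with its 95% interval) in saline and dexamethasone lungs at 4 and 8 h; right, the knockout minus the wild-type dexamethasone effect at each time; filled points passed an adjusted p under 0.05. Kdr and Aplnr stand below 0 in dexamethasone lungs at 8 h (-0.72 and -0.78), and in dexamethasone lungs at 4 h all 10 genes lie between -0.11 and 0.125.

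Whether the dexamethasone effect differed between genotypes was tested directly. At 4 h it was called for 1 of the 10 genes, Tek, which was lower, against 17% of all genes (13.8% higher and 3.15% lower). At 8 h it was called for 4, Kdr, Tek and Aplnr lower and Flt1 higher, against 6.53% (4.92% higher and 1.61% lower). The median over the 10 genes at 8 h was -0.35, beside 0.16 over all genes. For Kdr the difference was -0.01 at 4 h (interval -0.33 to 0.31), and at 8 h it was -0.63, the fall being larger in the knockout (SE 0.161; limma, adjusted p = 0.0259). Cyclic loess gave -0.82 for Kdr at 8 h (adjusted p = 0.025), and the call was lost without wild-type saline replicate 38 (-0.59), knockout saline replicate 47 (-0.62) or wild-type dexamethasone replicate 55 (-0.60), with adjusted p of 0.0630, 0.0508 and 0.0654. With the slide as a block it read -0.41 (adjusted p = 0.124), and with median scaling, which called none of the 10 genes by limma in this comparison at 4 or 8 h, -0.64 (adjusted p = 0.0949). For Aplnr the difference at 8 h was -1.16 (SE 0.305, adjusted p = 0.0288), and -1.16 after cyclic loess. That call was lost without wild-type saline replicate 37 (-1.07) or 39 (-1.08), wild-type dexamethasone replicate 55 (-0.97) or 56 (-1.11) or knockout dexamethasone replicate 64 (-1.15), with median scaling (-1.17, adjusted p = 0.0923) and by the other Aplnr probe (-1.35, adjusted p = 0.0949).

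For Tek the difference was -0.48 at 4 h (adjusted p = 0.0371) and -0.56 at 8 h (adjusted p = 0.0392), and -0.72 and -0.76 after cyclic loess. The treated Tek arrays of the genotypes overlapped at both times, while the knockout saline arrays were all above the wild-type ones. These saline arrays are those that stood apart in the difference between bright and dim probes of a gene. The part of that difference was not tested beyond the cyclic loess values. The Tek calls were lost without single arrays: at 4 h without any 1 of replicates 36, 41, 43, 44, 49, 51, 52, 57 and 58, with values between -0.50 and -0.41, and at 8 h without any 1 of 37, 38, 39, 46, 47, 48, 55, 56, 61 and 64, between -0.60 and -0.46. The effect on Flt1 was 0.41 higher in the knockout at 8 h (adjusted p = 0.0488), 0.10 after cyclic loess (adjusted p = 0.733) and -0.02 for its other probe. This Flt1 call was lost without any 1 of replicates 37, 39, 45, 46, 47, 55, 56, 62, 63 and 64, with values between 0.33 and 0.43. Pecam1 read -0.38 at 4 h (adjusted p = 0.0515), and -0.56 after cyclic loess (adjusted p = 0.0166).

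Arrays of both treatments lay on the same slide in a few cases, which gives differences of 1 array against 1. Within the 2 such slides of wild-type lungs at 4 h Kdr read -1.57 and -1.31, Tek -1.005 and -0.973, Aplnr -2.75 and -2.41 and Apln -1.59 and -2.20. Vegfa read -0.158 and -0.406 on these 2 slides. On the slide with both treatments of wild-type lungs at 8 h Kdr read -0.17 and Apln -2.24. There Flt1 read 0.199, Cldn5 -0.217, Cdh5 -0.082 and Vegfa -0.17, beside 0.45, -0.40, 0.07 and -0.30 in the fit over all arrays. For knockout lungs Kdr read -1.42 on 1 slide at 4 h and -0.54 and -0.48 on 2 slides at 8 h. These values have no test. The reported fit has no slide term, and with the slide as a random block the consensus correlation of arrays within a slide was 0.41.

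Other genes of these pathways, without the 10, were counted from lists of known members. Beside these counts, the shares of all genes called higher and lower were 14.3% and 22.4% in wild-type lungs at 4 h, 9.32% and 14.3% at 8 h, 25% and 17.6% in knockout lungs at 4 h, and 25.8% and 17.2% at 8 h. Of 7 further members of the VEGF family and its coreceptors, 2 rose and 3 fell in wild-type lungs at 4 h. Nrp1 and Nrp2, the neuropilin coreceptors, fell by 0.63 and 1.11 there, and Vegfc, the lymphatic ligand, by 0.61 (limma, adjusted p = 0.00033, 9.79e-09 and 0.00167). Pgf, a ligand of Flt1, and Vegfd rose by 0.63 and 0.44. In knockout lungs at 4 h Nrp1 fell by 1.06 and Nrp2 by 0.52, and the effect on Nrp2 was 0.59 higher than in wild type (adjusted p = 0.0130; 0.39 and 0.0608 after cyclic loess). Of the 5 genes of the angiopoietin pathway 2 rose and 2 fell in wild-type lungs at 4 h. The ligands Angpt1 and Angpt2 fell by 0.50 and 0.96, and Ptprb, the phosphatase that restrains Tek, rose by 0.65. Angpt2 read 0.13 at 8 h in wild-type lungs (adjusted p = 0.472) and fell in knockout lungs (by 0.47, adjusted p = 0.000377). The difference between genotypes at 8 h was -0.60 for Angpt2 and -0.82 for Angpt1 (adjusted p = 0.0216 and 0.00779), and neither passed with median scaling (0.157 and 0.0671) or with the slide as a block (0.0632 and 0.0565).

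Of 19 further junction genes 1 rose and 9 fell in wild-type lungs at 4 h, 1 and 3 at 8 h, and in knockout lungs 4 and 8 at 4 h and 5 and 8 at 8 h. After cyclic loess the knockout counts were 3 and 10 at both times. The gap junction gene Gja5 of arterial endothelium fell by 2.52 and 2.28 in wild-type and by 2.39 and 2.14 in knockout lungs at 4 and 8 h. Gja1 fell by 1.22 and 1.38 at 4 h in the 2 genotypes, read -0.17 at 8 h in wild-type lungs (adjusted p = 0.561) and fell by 0.42 in knockout lungs. Tjp1, the scaffold ZO-1 of tight junctions, rose in all 4 comparisons, by 0.64, 0.53, 0.68 and 0.45. Of 16 endothelial transcription factors 5 rose and 7 fell in wild-type lungs at 4 h. Lmo2, a cofactor of endothelial and blood cell development, fell by 1.85 and 0.80 in wild-type and by 2.14 and 1.45 in knockout lungs at 4 and 8 h, and Ets1 by 0.93, 0.56, 1.01 and 0.93. Foxo1, the factor whose activity angiopoietin signalling restrains, rose by 0.88, 0.35, 0.70 and 0.57. The difference between genotypes at 8 h was called for Lmo2 (-0.66, adjusted p = 0.0267), which did not pass with median scaling (0.168).

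Of 9 Notch genes 3 rose and 4 fell in wild-type lungs at 4 h and 1 rose at 8 h. Dll4, the ligand that tip cells present under Vegfa, fell by 1.32 at 4 h in wild-type lungs, read -0.39 at 8 h (adjusted p = 0.105) and fell by 1.61 and 1.08 in knockout lungs. Notch4 rose by 0.80 and 0.69 at 4 h in the 2 genotypes. Of 36 other surface and secreted genes of endothelium 9 rose and 17 fell in wild-type lungs at 4 h, and 2 and 10 at 8 h. In knockout lungs 11 rose and 18 fell at 4 h and 10 and 17 at 8 h, which became 7 and 23, and 3 and 19, after cyclic loess. Myct1 fell by 1.96 and 2.03 at 4 h, read -0.22 at 8 h in wild-type lungs (adjusted p = 0.320) and fell by 1.09 in knockout lungs, a difference of -0.87 (adjusted p = 0.0166; 0.0923 with median scaling and 0.0632 with the slide as a block). Acvrl1, the BMP receptor of endothelium, fell by 0.66, 0.69, 1.12 and 1.36.

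Of 13 genes of the capillary subtypes of the lung 5 rose and 4 fell in wild-type lungs at 4 h and 3 and 3 at 8 h, and in knockout lungs 5 and 5 at 4 h and 4 and 6 at 8 h, or 5 and 7 and 3 and 7 after cyclic loess. Fibin rose by 1.03, 0.86, 1.53 and 1.18 in the 4 comparisons, and Chst1 fell by 0.82 in wild-type and 0.79 in knockout lungs at 4 h. Cxcl12 fell by 0.94 and 1.72 in wild-type lungs, read -0.22 in knockout lungs at 4 h (adjusted p = 0.326) and fell by 1.57 at 8 h. The difference between genotypes at 4 h was 0.72 for Cxcl12 (adjusted p = 0.0388), which did not pass after cyclic loess (0.44, 0.205), with quantile normalization (0.58, 0.111), with median scaling (0.85, 0.0503) or with the slide as a block (0.48, 0.239). Of 14 genes induced by hypoxia, a condition that also induces Vegfa, 5 rose in wild-type lungs at 4 h and 4 at 8 h, while in knockout lungs 6 rose and 1 fell at 4 h and 7 rose and 1 fell at 8 h. Bnip3 rose by 1.51, 1.02, 1.76 and 1.49 and Adm, the vasodilator adrenomedullin, by 1.65, 2.17, 1.87 and 2.18. Vegfa read between -0.50 and -0.24 in the same 4 comparisons. The medians of these lists in wild-type lungs at 4 h lay between -0.26 and 0.16, beside -0.72 over the 10 genes and -0.03 over all genes.

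**Figure D5:**
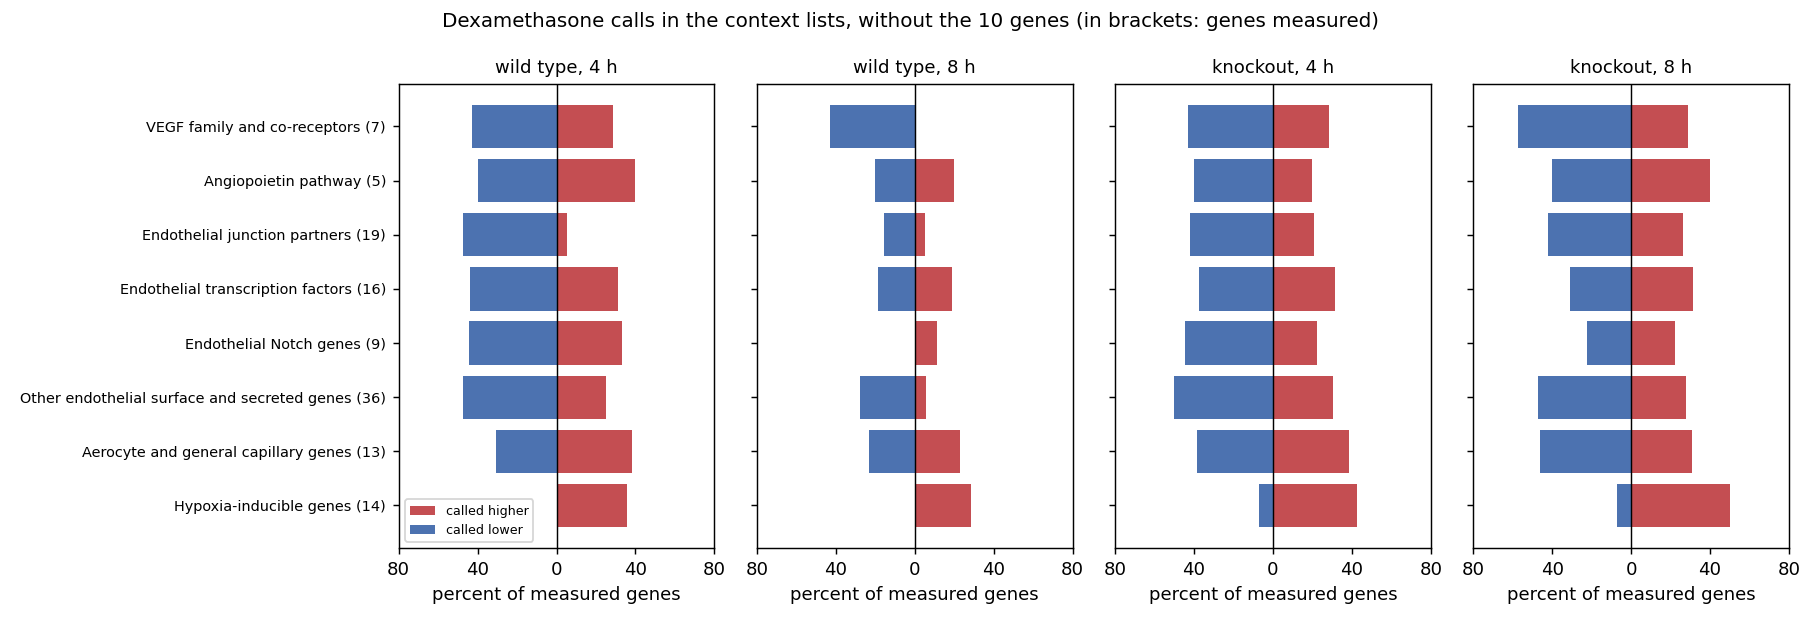
Percent of the measured genes of each list, without the 10 genes, called higher (red, to the right) or lower (blue, to the left) after dexamethasone in wild-type and knockout lungs at 4 and 8 h; the number of genes measured is in brackets. In wild-type lungs at 4 h 9 of 19 junction genes and 17 of 36 surface and secreted genes were called lower, while 5 of 14 hypoxia-inducible genes were called higher.

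Correlations were ranked among genes that had a value on every array and no Gm, Rik or LOC name. Of these, the genes whose level followed Kdr most closely over the 29 arrays were Myct1 (Pearson r = 0.979), Adcy8 (0.972), Chst1 (0.966), Sh3rf2 (0.965) and Rap2a (0.955). For Apln they were Slc7a10 (0.983), Hs2st1 (0.968), Dpysl3 (0.967), Mmrn2 (0.961) and Fabp1 (0.961), and for Vegfa Slc39a10 (0.893), Tle6 (0.882), Tgfbr2 (0.88), Ddx31 (0.879) and Nup210 (0.876). Among the 10 genes the closest pairs were Tie1 and Pecam1 (r = 0.93), Tek and Aplnr (0.92), Pecam1 and Aplnr (0.89), Apln and Aplnr (0.88) and Kdr and Tek (0.87). Kdr and Apln, both low in treated lungs at 4 h, correlated less (0.50). Treated wild-type lungs at 8 h had Kdr overlapping the saline arrays and Apln below them. In treated knockout lungs mean Kdr was 2.10 at 4 h and 2.65 at 8 h, and mean Apln 0.25 and -1.69. The part of single groups in this correlation was not tested. Cdh5 correlated with the others between -0.63 and -0.28, and Flt1 has no value because of its missing array. The 29 values behind each correlation share the arrays, their scaling and the treatment groups, and are given as a description.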

How the data were processed

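The deposited scanner files hold spot intensity values that the authors made with Agilent Feature Extraction, version 10.7.3.1 per the file headers and 10.6 per the submitters' processing notes. The authors also deposited a series table of log2 values, whose columns have medians between 8.28 and 8.3 and follow each array's median signal (Spearman 0.99999 to 1); its scaling is not stated, and it served only as an alternative. From the processed signal, spots marked as outliers were set to missing, spots of a probe averaged, and log2 values taken relative to each array's 75th percentile. A probe entered the fit if at least 3 arrays of any 1 group had it well above background, which kept 33936 probes and 15351 genes, each by its probe of highest mean. Probes were named through RefSeq accessions: 24844 had 1 gene, 0 several and 16330 none. With limma 3.58.1 in R 4.3.3, 8 group means were fitted over 29 arrays, and 13 contrasts were adjusted by Benjamini-Hochberg within each comparison, with further probes tested over all kept probes. The 10 genes and the pathway lists were chosen with earlier results of these data known, as was the rule for naming genes: from each list, up to 4 called members with the lowest adjusted p in a dexamethasone comparison or difference between genotypes, and for Kdr, Apln and Vegfa the 5 genes of highest Pearson r. Genes with a missing value or with a Gm, Rik or LOC name were left out of the ranking by Pearson r. Between 75.5 and 88.5% of an array's spots were well above background, and none was saturated. Arrays of 1 group correlated between 0.9718 and 0.9918. Precision is set by how few arrays each group has. The script was tested on simulated data. Alternatives covered normalization, background, the filter on dim probes, the choice of probe, slide blocks, variance models, the series table and leaving out each array.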

Additional observations from a re-analysis of the deposited data

Results flagged for a closer look

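One array lay far from the others of its group. Flt1 read 4.58 on wild-type saline replicate 36 at 4 h, where the other 3 arrays read between 4.43 and 4.45. A total of 49 groups with 4 values were tested in this way, and chance marks about 1 in 20 groups.

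The other values concern dexamethasone effects that differed between genotypes or times by limma. Between genotypes, knockout minus wild type, the effect on Tek differed by -0.48 at 4 h and -0.56 at 8 h. At 8 h the effect on Kdr differed by -0.63, that on Aplnr by -1.16 and that on Flt1 by 0.41. Between times, 8 h minus 4 h, the effect on Kdr differed by 1.30 in wild-type and by 0.68 in knockout lungs. The effect on Aplnr differed by 1.09 in wild-type lungs, and that on Apln by -2.00 in knockout lungs.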

How the results depend on the processing

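The count of the 10 genes called is given under each alternative that moved it by over 1.5 times. Fitting only the arrays of the groups compared gave 4 for the dexamethasone effect in wild-type lungs at 8 h, 0 for genotype in saline and 0 in dexamethasone lungs at 8 h, 0 and 2 for the difference of effects between genotypes at 4 and 8 h, and 1 for the wild-type difference between times. Median scaling gave 1 for genotype in dexamethasone lungs at 8 h and 0 and 0 for the difference between genotypes at 4 and 8 h. The dimmest probe gave 1 for genotype in dexamethasone lungs at 8 h, 2 for the difference between genotypes at 8 h, and 1 and 1 for the differences between times in wild-type and knockout lungs. Array weights gave 5 for genotype in saline lungs at 8 h, 2 and 7 for the difference between genotypes at 4 and 8 h, and 2 for saline at 8 against 4 h. The slide as a fixed block gave 2 and 1 for the difference between genotypes at 4 and 8 h and 1 for saline. The slide as a random block gave 3 for the difference between genotypes at 4 h, 4 for the wild-type difference between times and 1 for saline. For the difference between genotypes at 4 h, 2 genes were called with each of quantile normalization, cyclic loess, normexp, probes well above background on all arrays, the trend and robust variance, and the series table. Normexp gave 1 for the knockout difference between times and 1 for saline, the series' own values gave 1 for the former, and the mean of probes 1 for the wild-type difference between times. The causes were not tested.

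Counts over all genes moved as well. Across all alternatives they ran from 1538 to 4282 for the dexamethasone effect in wild-type lungs at 8 h (3625 as reported), 1581 to 5798 and 336 to 5416 for genotype in saline lungs at 4 and 8 h (3842 and 2117), 75 to 297 and 50 to 1189 in dexamethasone lungs (149 and 760), 530 to 3439 and 32 to 2473 for the difference between genotypes (2605 and 1002), 547 to 1725 and 207 to 1123 for the differences between times in wild-type and knockout lungs (923 and 462) and 216 to 1810 for saline (500). The share of calls that were higher went from 39% to 28.3% with median scaling in wild-type lungs at 4 h, from 58.7% and 60% to 46% and 47.8% with cyclic loess in knockout lungs at 4 and 8 h, from 24.2% to 6.89% with median scaling and 41.9% with cyclic loess for genotype in saline lungs at 4 h, from 36.5% to 61.4% with cyclic loess at 8 h, and from 81.4% and 75.3% to 52.3% and 51.9% with cyclic loess for the difference between genotypes. Median scaling moved the median of all genes to -0.13 in wild-type lungs at 4 h and to -0.20 for genotype in saline lungs at 4 h.

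Leaving out 1 array gave counts of 1 to 4 for genotype in saline lungs at 4 h and 1 to 4 in dexamethasone lungs at 8 h, 0 to 2 and 0 to 5 for the difference between genotypes at 4 and 8 h, and 1 to 3 for the wild-type difference between times. A sign changed together with a call in 2 values, both with the dimmest probe: Cdh5 in knockout lungs at 4 h (-0.463) and the Flt1 difference between genotypes at 8 h (-0.017). A further 144 values changed sign where the reported value had no call. No paired analysis was possible because the groups share no replicate numbers.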
